A study of Mus musculus with 225 samples.

Results

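*Evx2*, *Hoxd13* and *Hoxd12* are 3 neighboring genes at the end of the mouse *HoxD* cluster that is active in developing digits. They were selected by name from the tables of a single-cell RNA-seq experiment and are 3 of the 23165 genes counted there. The question was how often the 3 mRNAs were found in the same cell, at which levels relative to each other, and which other mRNAs accompanied them. In autopod cells *Evx2* and *Hoxd12* were found almost always in cells that also had *Hoxd13*, whereas *Evx2* and *Hoxd12* overlapped in part. *Hoxd13* was by far the highest of the 3 genes in 1 run of autopod cells, but *Hoxd12* exceeded it in 5 of 6 cells with both genes in the other run.

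*Hoxd13* and *Hoxd12* encode homeodomain transcription factors of the posterior end of the cluster, and *Evx2* encodes a related homeodomain protein, a vertebrate counterpart of *Drosophila* even-skipped. In the limb bud the posterior *Hoxd* genes, *Evx2* and the more distant *Lnp* are contacted by a series of enhancers in the gene desert next to *Evx2*, which is active when digits form. *Hoxd13* lies closest to that desert among the *Hoxd* genes, and its mutations alter digits in mouse and human.

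Cells were taken from forelimbs of *Hoxd11::GFP* heterozygous mouse embryos of a mixed C57Bl6CBAF1 background at E12.5, with no further treatment. All cells of both tissues therefore carried 1 *Hoxd11* allele inactivated by the knock-in of an IRES and tau-GFP, and the brightest cells were sorted, so that cells without activity of the *Hoxd11* locus are underrepresented. The tissues were the autopod, the future hand, and the zeugopod, the future forearm. Pools of littermates were dissociated and single cells isolated with the Fluidigm C1 system, which gives each cell a chamber and a library of its own, and no label ties a cell to an embryo. Each tissue is thus 1 sample and its cells are not replicates, and no test was made. Of 96 autopod cells, 76 passed the filter of the authors, 59 in run NXT0072 and 17 in run NXT0143. Of the zeugopod cells, 58 of 60 passed in run NXT0142 and 65 of 69 in run NXT0143, and these are the retained cells. The number of reads on genes was between 187344 and 9437447 in retained autopod cells and between 186271 and 6801278 in retained zeugopod cells. Reads carry no molecular identifiers, so they are not counts of molecules. The intervals and limits given for shares of cells treat the cells of 1 pooled sample as independent draws. They cover counting error only, and leave out differences between embryos, runs and captures.

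In the annotation of GRCm38 (GENCODE), *Evx2* (ENSMUSG00000001815) lies at chr2:74652991-74659557 on the minus strand. *Hoxd13* (ENSMUSG00000001819) lies at chr2:74668310-74671599 and *Hoxd12* (ENSMUSG00000001823) at chr2:74675013-74677705, both on the plus strand. The start sites of *Evx2* and *Hoxd13* are 8753 bases apart and the genes are transcribed away from each other, while the start site of *Hoxd12* is 3414 bases past the end of *Hoxd13*. The 250 bases before each start site are shown because the 3 promoters face the same enhancers and their mRNAs were found together. All 3 genes were matched in the RefSeq promoter table (GRCm38.p6), where *Hoxd13* starts upstream of its GENCODE start. Each sequence is written from 5′ to 3′ on the strand of its gene, from chr2:74659558-74659807 for *Evx2*, chr2:74667975-74668224 for *Hoxd13* and chr2:74674763-74675012 for *Hoxd12*. Capitals mark the 4 motifs searched on either strand, which are spelled out after the sequences.
Evx2: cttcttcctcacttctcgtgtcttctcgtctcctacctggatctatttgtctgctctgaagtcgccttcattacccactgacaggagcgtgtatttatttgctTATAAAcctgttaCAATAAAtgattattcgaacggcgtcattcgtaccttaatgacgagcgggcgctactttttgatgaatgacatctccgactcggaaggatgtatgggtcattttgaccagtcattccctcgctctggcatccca
Hoxd13: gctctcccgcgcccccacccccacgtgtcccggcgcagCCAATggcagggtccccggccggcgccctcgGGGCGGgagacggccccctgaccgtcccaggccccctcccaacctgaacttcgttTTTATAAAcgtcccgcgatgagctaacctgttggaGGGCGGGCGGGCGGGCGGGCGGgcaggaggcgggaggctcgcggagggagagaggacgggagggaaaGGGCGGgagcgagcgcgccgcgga
Hoxd12: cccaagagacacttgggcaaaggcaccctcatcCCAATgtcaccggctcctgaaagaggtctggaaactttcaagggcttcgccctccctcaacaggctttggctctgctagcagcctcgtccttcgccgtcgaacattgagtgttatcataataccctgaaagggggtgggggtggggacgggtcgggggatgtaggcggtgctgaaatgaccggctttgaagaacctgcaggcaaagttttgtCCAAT
The letters TATAAA, the usual core of a TATA box, stood once before *Evx2* and on both strands of a single site before *Hoxd13*, and were absent in these bases before *Hoxd12*. They occur in 12.4% of all 32851 RefSeq promoter windows of the same length. CAATAAA, a sequence to which posterior HOX proteins bind in vitro, was found in the *Evx2* window alone and in 4.20% of all windows. CCAAT was found in the *Hoxd13* and *Hoxd12* windows and in 33.8% of all windows. GGGCGG, the core of a GC box, was found 7 times before *Hoxd13*, 5 of these in overlap with each other, in neither of the other 2 windows, and in 32.7% of all windows. The 3 promoters differed in base composition, with 45.6% G and C before *Evx2*, 55.6% before *Hoxd12* and 74.4% before *Hoxd13*, where the median of all windows was 52.4%. These matches describe letters and were not tested as binding sites.

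The labels were first set against marker genes. At least 2 of the autopod markers *Hoxa13*, *Msx1* and *Lhx9*, a list without the 3 genes described here, had 5 or more reads in 45 of 76 autopod cells and in 2 zeugopod cells. At least 2 of the zeugopod markers *Shox2*, *Meox2* and *Hoxa11* had this number in 0 of 76 autopod cells and in 61 zeugopod cells. By run, the autopod markers were found in 37 of 59 autopod cells of NXT0072 and in 8 of 17 of NXT0143. *Hoxa13*, *Msx1* and *Lhx9* are also among the genes the study listed as enriched in the autopod in these same cells. Both lists were chosen with earlier results of these data known, so the counts describe the labels and are no independent check of them. No retained cell met the requirement of the marker lists of muscle, epithelium, endothelium or macrophages. The blood list could not be met by any cell, since 1 of its markers could be used and 3 were required. The chondrogenic list (at least 3 of *Sox9*, *Col2a1*, *Acan*, *Col9a1* and *Matn1*) was met in 35 of 76 autopod cells and in 38 zeugopod cells.

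*Hoxd13* was the most widely detected gene of the group. Detection of a gene in a cell means 5 or more reads throughout. In NXT0072, *Hoxd13* was detected in 54 of 59 autopod cells (91.5%, exact binomial 95% interval 81.3 to 97.2%), with 5, 4262 and 24070 reads as the lowest, median and highest count of these cells. In NXT0143 it was detected in 11 of 17 cells (64.7%, interval 38.3 to 85.8%), with 24, 254 and 2371 reads. Levels are given as the normalized values of the authors, which are counts scaled by spike-in size factors and divided by gene length in kb, and in which *Hoxd13* with 0 reads sits at 0.402. The median of the detected cells was 1711 in NXT0072 and 96.9 in NXT0143, and 53 of the 54 cells of NXT0072 had values of 105.4 or more. The detected cells of the 2 runs overlapped, since a cell of NXT0143, autopod cell 11, reached 3767. Among the 10948 genes of the normalized table, *Hoxd13* ranked at a median of 195 from the top in the 54 cells of NXT0072, within the first 100 genes in 16 of them, and at best at rank 6. In NXT0143 its median rank was 891 and no cell had it within the first 100.

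*Hoxd12* was detected in 31 of 59 autopod cells of NXT0072 (52.5%, interval 39.1 to 65.7%) and in 6 of 17 of NXT0143 (35.3%, interval 14.2 to 61.7%). The counts of these cells were 5, 90 and 7709 reads (lowest, median and highest) in NXT0072 and 23, 627.5 and 3199 reads in NXT0143. Unlike *Hoxd13*, *Hoxd12* was spread over a low and a high range in NXT0072. Its normalized value was between 1.58 and 22.5 in 16 cells and between 102.9 and 2775 in 15 cells, with none in between. This gap was noticed in the values and not looked for in advance. In NXT0143, 4 of the 6 cells were above 342 and the other 2 at 12.2 and 35.9. The mean of log2(value + 1) over all cells of a run was 3.29 in NXT0072 and 3.02 in NXT0143, a difference of 0.27. That of *Hoxd13* was 9.52 and 4.66, a difference of 4.86, the highest of the 4898 genes compared between the runs, of which 2.08% were higher by 2 or more in NXT0072 and 6.49% lower. *Evx2* had 2.08 and 1.71, a difference of 0.37. In log2(CPM + 1), with CPM the reads of a gene scaled to 1000000 reads on genes in the cell, these differences were 4.80 for *Hoxd13*, −0.061 for *Hoxd12* and 0.40 for *Evx2*. The size factors were centered within each batch by the authors, so that levels set across runs also carry that choice. On the scale of log2(value + 1), the median difference over the 4898 genes was −0.14. For a single gene, fewer mRNA molecules in a cell and a lower capture of each molecule cannot be told apart, nor can the run and the cells it held. The part of capture was not tested.

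*Evx2* was detected in 25 of 59 autopod cells of NXT0072 (42.4%, interval 29.6 to 55.9%) and in 5 of 17 of NXT0143 (29.4%, interval 10.3 to 56%). Its counts were lower, with 5, 49 and 1896 reads in NXT0072 and 41, 49 and 277 in NXT0143. The median normalized value of these cells was 17.6 in NXT0072 and 18.1 in NXT0143, where 0 reads give 0.238. Most *Evx2* reads came from few cells. Autopod cell 31 held 27.1% of the 6997 *Evx2* reads of all retained autopod cells, and the first 5 cells held 70.7%. For *Hoxd13* the first 5 cells held 26.5% of 267306 reads, and for *Hoxd12* 68% of 28714 reads. No cell had *Evx2* within its first 100 genes, and its best rank was 490 in NXT0072 and 1452 in NXT0143.

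**Figure D1:**
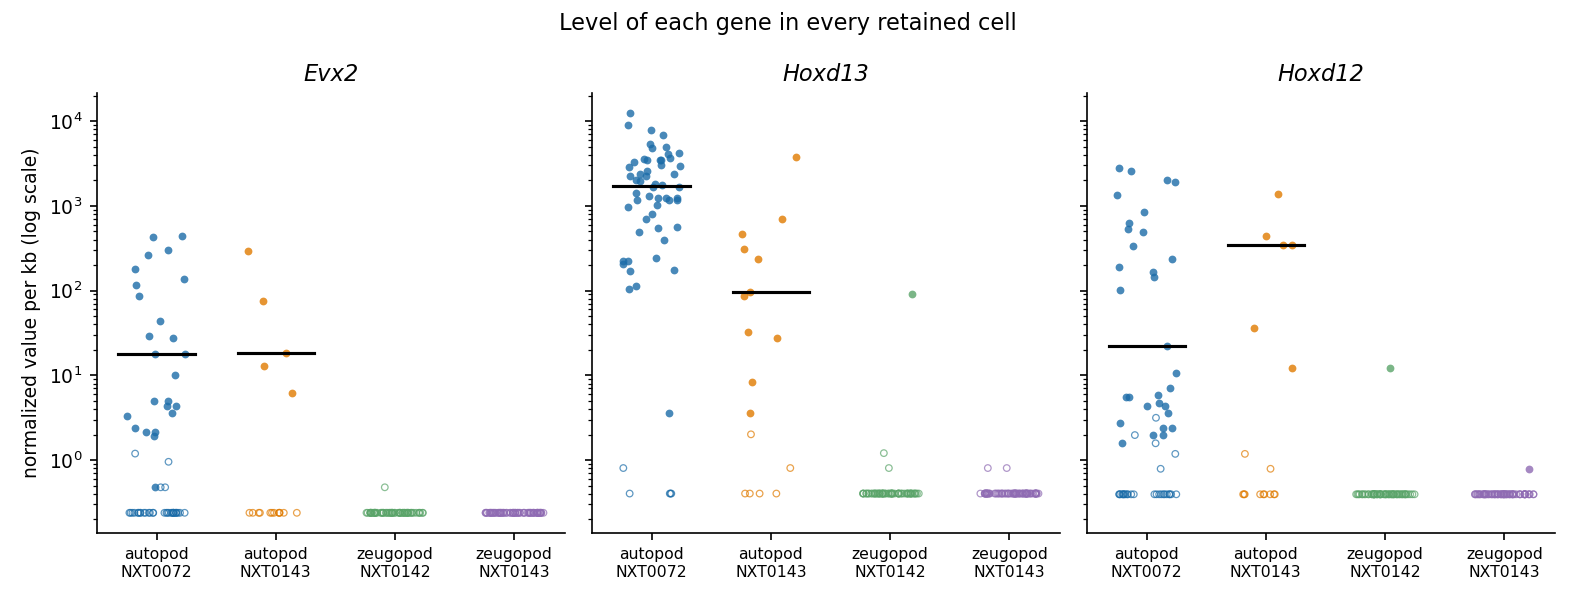
Normalized value per kb (log scale) of *Evx2*, *Hoxd13* and *Hoxd12* in each retained cell, by tissue and run. Filled points are cells with at least 5 reads of the gene, open points cells with fewer, and bars mark the median of filled points where there are 5 or more; *Hoxd13* has its median at 1711 in autopod cells of NXT0072 and 96.9 in those of NXT0143, and nearly all zeugopod cells sit at or near the value for 0 reads.

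The cells with *Evx2* were nearly all cells with *Hoxd13*. Over both runs *Hoxd13* was detected in 29 of 30 autopod cells with *Evx2* (96.7%, interval 82.8 to 99.9%) and in 36 of 46 without it (78.3%). It was 25 of 25 cells in NXT0072 and 4 of 5 in NXT0143. The exception was autopod cell 9, with 42 reads of *Evx2*, 1 of *Hoxd13*, 0 of *Hoxd12*, 1200 of *Hoxd11* and 144 of *Hoxa13*. All 37 cells with *Hoxd12* had *Hoxd13* (interval 90.5 to 100%), 31 in NXT0072 and 6 in NXT0143, against 28 of 39 cells without *Hoxd12* (71.8%). In NXT0072 the share of cells with *Hoxd13* was already 91.5%, so that 25 of 25 and 31 of 31 leave little room above it. In the other direction, 29 of 65 cells with *Hoxd13* had *Evx2* (44.6%, interval 32.3 to 57.5%) and 37 of 65 had *Hoxd12* (56.9%, interval 44 to 69.2%). Raising the detection limit lowered these shares, and with cells thinned to 500000 reads on genes and a limit of 5 reads they were 27.6% for *Evx2* and 43.1% for *Hoxd12*, over 58 cells with *Hoxd13*.

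*Evx2* and *Hoxd12* shared a part of their cells. *Hoxd12* was detected in 21 of 30 cells with *Evx2* (70%, interval 50.6 to 85.3%) and in 16 of 46 without it (34.8%). In NXT0072 it was 19 of 25 cells (76%) against 12 of 34 (35.3%), and in NXT0143 2 of 5 against 4 of 12. With a limit of 20 reads for both genes the counts over both runs were 11 of 22 against 16 of 54, and at 1 read they were 27 of 38 against 21 of 38. After thinning, with a limit of 5 reads, they were 8 of 17 cells (47.1%) against 18 of 55 (32.7%). Under a stricter rule, with both a normalized value of 5 or more and 5% or more of the top *Hoxd* value in that cell, *Evx2* was found in 8 autopod cells and *Hoxd12* in 1 of these (12.5%, interval 0.32 to 52.7%), against 16 of 68 cells without *Evx2* (23.5%), so that the direction turned under this rule.

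Taking the 3 genes together, all 3 were detected in 21 of 76 autopod cells (27.6%), *Evx2* and *Hoxd13* without *Hoxd12* in 8, *Hoxd13* and *Hoxd12* without *Evx2* in 16 and *Hoxd13* alone in 20. *Evx2* alone was found in 1 cell, *Hoxd12* alone or with *Evx2* only in 0, and 10 cells had none of them. In NXT0072 the leading combination was all 3 genes, with 19 of 59 cells (32.2%), followed by *Hoxd13* alone with 17 (28.8%). In NXT0143 it was found in 2 of 17 cells (11.8%), and 5 of 17 cells (29.4%) had none of the 3 genes. Of the 11 autopod cells without *Hoxd13*, 8 met the chondrogenic list and 2 the autopod list, against 27 and 43 of 65 cells with *Hoxd13*. The part of cell type in the detection of *Hoxd13* was not tested.

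**Figure D2:**
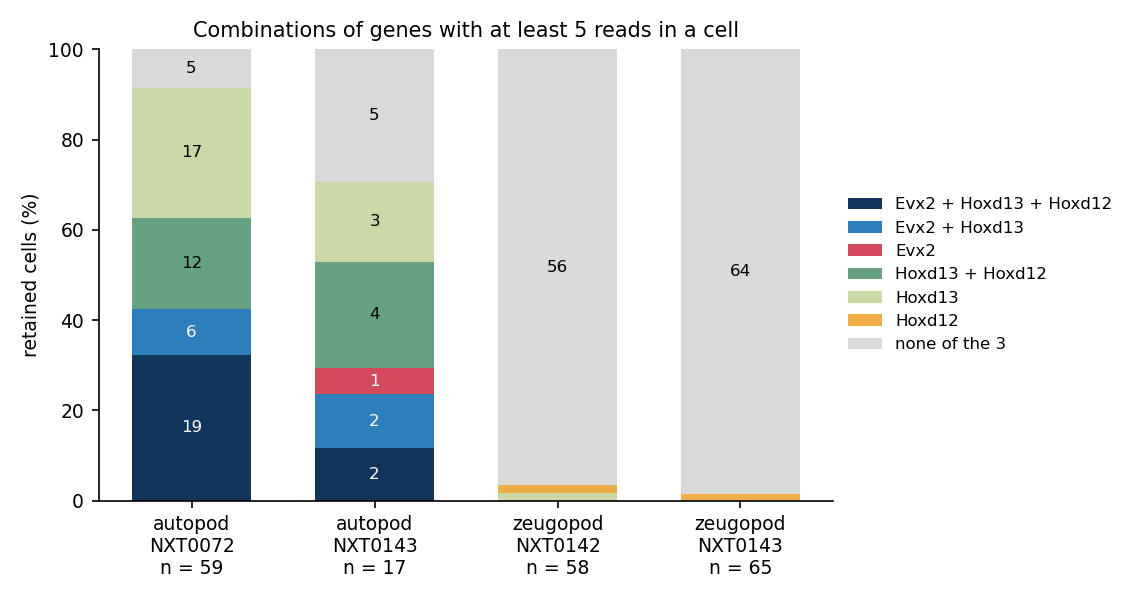
Share of retained cells (%) with each combination of *Evx2*, *Hoxd13* and *Hoxd12* at 5 or more reads, by tissue and run, with the number of cells in the larger segments. All 3 genes were detected in 19 of 59 autopod cells of NXT0072 and 2 of 17 of NXT0143, and all but 3 zeugopod cells had none of them.

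Levels within a cell were compared as log2 ratios of the normalized values, which are per gene length, over cells with 5 or more reads of both genes. In NXT0072 *Evx2* was below *Hoxd13* in all 25 such cells. The log2 ratio ranged from −11.34 to −1.20 with a median of −6.96, so that in the median cell *Evx2* reached 0.804% of the level of *Hoxd13*. In NXT0143 the 4 cells with both genes had log2 ratios from −4.21 to 1.60 with a median of −1.91. In autopod cell 16 *Evx2* was above *Hoxd13*, with 277 reads of *Evx2* and 54 of *Hoxd13* and normalized values of 293 and 96.9. The normalized values of *Evx2* in these 4 cells were 12.9, 18.1, 76.3 and 293.

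The order of *Hoxd12* and *Hoxd13* differed between the runs. *Hoxd12* was below *Hoxd13* in 30 of 31 cells of NXT0072, with a median log2 ratio of −4.65 (range −11.64 to 0.49), or 3.98% of the level of *Hoxd13*. The exception was autopod cell 60, with 7709 reads of *Hoxd12* and 5389 of *Hoxd13*. In NXT0143 *Hoxd12* was above *Hoxd13* in 5 of 6 cells, with a median log2 ratio of 2.14 (range −6.71 to 3.65). These 5 cells were autopod cell 4 with 477 reads of *Hoxd12* and 37 of *Hoxd13*, cell 15 with 3199 and 540, cell 17 with 1030 and 94, cell 20 with 778 and 544, and cell 10, where 28 reads of *Hoxd13* gave 3.62 and *Hoxd12* reached 12.2. The remaining cell was autopod cell 11, with 23 reads of *Hoxd12* and 2371 of *Hoxd13*, the highest *Hoxd13* count of that run. Among cells with at least 1 of the 3 genes detected, *Hoxd13* had the highest normalized value above its value for 0 reads in 53 of 54 cells of NXT0072. In NXT0143 *Hoxd13* was highest in 5 of 12 cells, *Hoxd12* in 5 and *Evx2* in 2.

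*Evx2* was below *Hoxd12* in 14 of 19 cells of NXT0072 with both genes and in both such cells of NXT0143. The log2 ratio covered a wide range in NXT0072, from −8.65 to 7.01 with a median of −2.05. It was −6.75 and −4.26 in the 2 cells of NXT0143. The 8 cells with the highest *Evx2*, all at a normalized value of 100 or more, were 7 cells of NXT0072 and autopod cell 16 of NXT0143. In 6 of them *Hoxd12* was low or at its value for 0 reads: autopod cell 41 had 446 for *Evx2* and 10.6 for *Hoxd12*, cell 31 had 304 and 2.37, cell 63 had 135 and 4.34, and cells 73, 52 and 16 had 424, 264 and 293 for *Evx2* and 0.394 for *Hoxd12*. The other 2 were cell 86, with 179 and 165, and cell 60, with 115.6 and 2553. *Hoxd12* at 100 or more was thus found in 2 of these 8 cells, and over all retained autopod cells in 15 of the 59 of NXT0072 and 4 of the 17 of NXT0143. The value of cell 73 rests on 72 reads in a shallow cell of 395952 reads on genes.

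**Figure D3:**
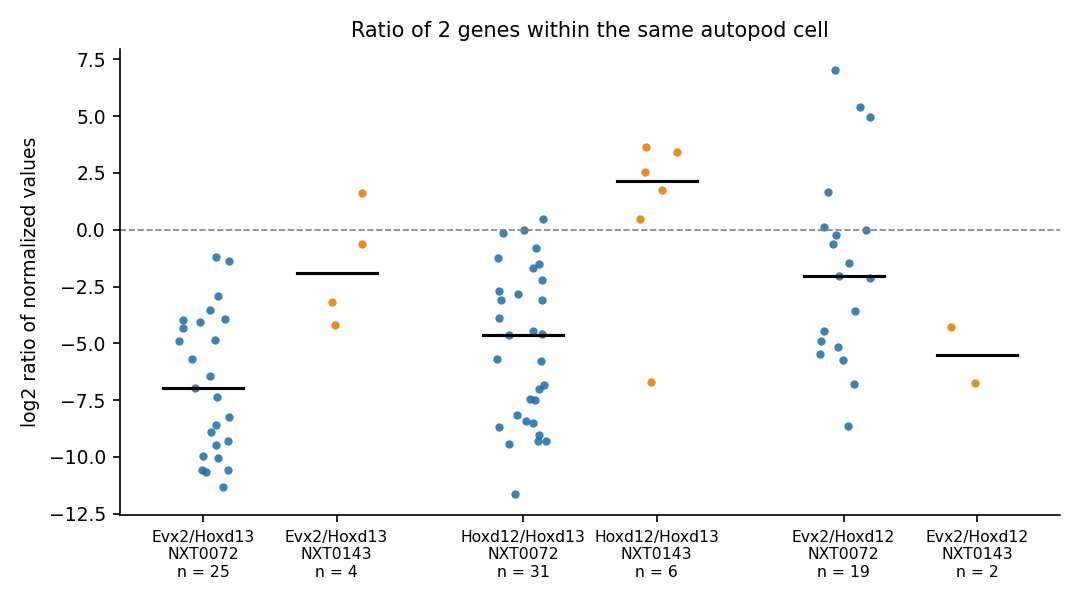
Log2 ratio of the normalized values of 2 genes within the same autopod cell, for cells with at least 5 reads of both genes, by run; each point is a cell, bars are medians and the dashed line is equality. *Hoxd12* relative to *Hoxd13* has its median at −4.65 in 31 cells of NXT0072 and at 2.14 in 6 cells of NXT0143.

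The spread of *Evx2* over the range of *Hoxd12* was then described in NXT0072 on each side of the gap in *Hoxd12* values, with 100 as the border. *Evx2* was detected in 10 of 15 cells with high *Hoxd12* (66.7%), in 9 of 16 cells with low *Hoxd12* (56.2%) and in 6 of 28 cells without *Hoxd12* (21.4%). Where it was detected, its median normalized value was 22.9, 4.29 and 23.4, with highest values of 179, 446 and 424. The ranges of the 3 sets overlapped. The cells with high *Hoxd12* were sequenced more deeply, with a median depth of 5.54 against 2.58 and 2.61 in the other sets, in units of 1000000 reads on genes. The border was set after seeing the values, and the part of depth was not tested beyond the thinned counts given for co-detection.

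**Figure D4:**
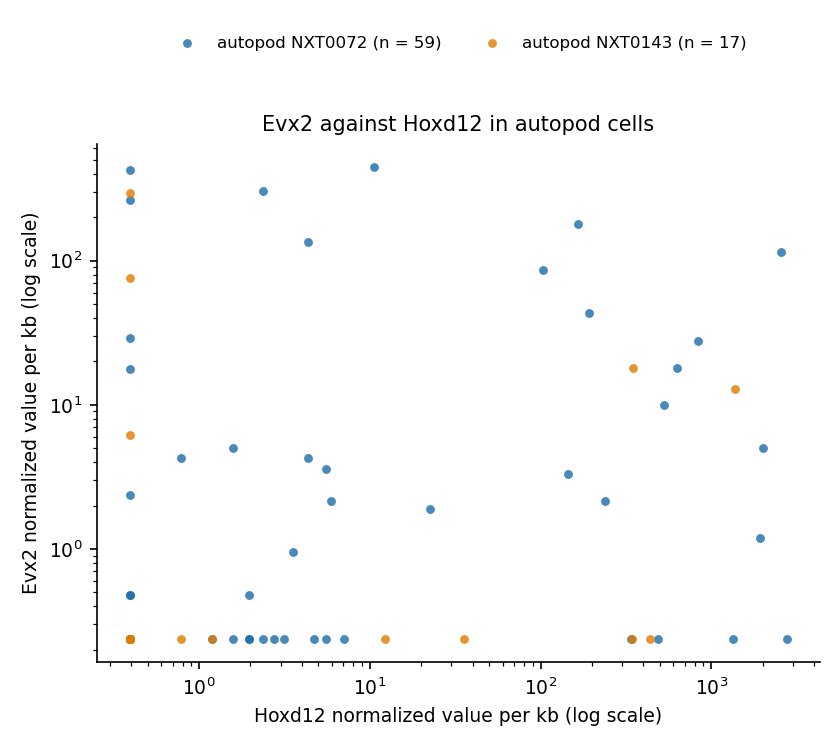
Normalized value per kb of *Evx2* against that of *Hoxd12* in each retained autopod cell, both on log scales, with runs in different colors; points on the left and lower edges are cells at the lowest value of *Hoxd12* or *Evx2*, reached with 0 or few reads. Of 8 cells with *Evx2* at 100 or more, 2 have *Hoxd12* at 100 or more, beside 15 of 59 cells in NXT0072 and 4 of 17 in NXT0143 overall.

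In ranks of CPM over the 59 cells of NXT0072, the Spearman rho was 0.15 for *Evx2* and *Hoxd13*, 0.26 for *Evx2* and *Hoxd12* and 0.28 for *Hoxd13* and *Hoxd12*. In the 17 cells of NXT0143 it was 0.20, 0.10 and 0.63. What the cells of a run share in preparation is not stated. They differ in depth, and many cells have 0 reads of *Evx2* or *Hoxd12*. These coefficients are descriptions of the cells, and weak values in sparse counts are no finding. The higher value of 0.63 rests on 17 cells, of which 6 had *Hoxd12* detected. With the number of genes detected per cell taken out as a partial rank correlation they were 0.17, 0.18 and 0.33 in NXT0072 and 0.12, 0.07 and 0.63 in NXT0143. The deposited normalized values gave 0.31, 0.33 and 0.52 in NXT0072 and 0.26, 0.02 and 0.49 in NXT0143. In these values a size factor common to all genes of a cell also enters.

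Cells with *Hoxd13* were next divided by *Evx2*, 29 with it and 36 without. The cells with *Evx2* had a median depth of 3.15 and the cells without it of 2.83, in units of 1000000 reads on genes. Their median numbers of genes detected with any read were 4137 and 3445.5. The mean log2(value + 1) of *Hoxd12* was 4.60 with *Evx2* and 2.95 without, a difference of 1.64, that of *Hoxd13* 10.42 and 9.20, a difference of 1.22, and that of *Hoxd11* 7.12 and 6.06, a difference of 1.06. *Hoxd10* (4.81 and 4.61) differed by 0.20 and *Hoxa13*, the counterpart of *Hoxd13* in the *HoxA* cluster, (3.93 and 3.49) by 0.44. The median over 4032 genes was 0.52 in the same direction. In NXT0072 alone the differences were 1.85 for *Hoxd12*, 1.10 for *Hoxd13*, 1.27 for *Hoxd11*, 0.48 for *Hoxd10* and −0.061 for *Hoxa13*, with a median over genes of 0.43. In NXT0143, with 4 cells against 7, they were 0.93, 0.63, 0.61, −1.45 and 2.86, with a median over genes of 1.03. *Hoxd12* and *Hoxd13* were thus higher in cells with *Evx2* in both runs, but in NXT0143 by less than the median gene. Over all 76 retained autopod cells, with or without *Hoxd13*, *Lnp*, on the far side of *Evx2* from *Hoxd13*, was detected in 27 of 30 cells with *Evx2* and in 33 of 46 without it. *Hoxd11* was detected in 29 of 30 and 38 of 46, *Hoxd10* in 17 of 30 and 26 of 46, and *Hoxa13* in 20 of 30 and 25 of 46. The runs differed in direction for 3 of these genes. *Lnp* was detected in 24 of 25 cells with *Evx2* and 25 of 34 without in NXT0072, and in 3 of 5 and 8 of 12 in NXT0143. *Hoxd10* was detected in 15 of 25 and 19 of 34, and in 2 of 5 and 7 of 12. *Hoxa13* was detected in 16 of 25 and 23 of 34, and in 4 of 5 and 2 of 12. In the cells with *Evx2* 21 of 30 met the autopod list, 9 the list of interdigit markers (at least 2 of *Aldh1a2*, *Msx2* and *Bmp7*), 11 the chondrogenic list and 9 the cell cycle list (at least 3 of *Mki67*, *Top2a*, *Ccnb1* and *Cdk1*). In those without it the numbers were 24, 8, 24 and 9 of 46. The part of depth or of cell type in these differences was not tested.

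Companion genes were sought as genes whose CPM had a Spearman rho of at least 0.3 with a member in both runs of autopod cells, among 3938 genes other than the member that reached 5 reads in 25% or more of the 59 cells of NXT0072. For *Evx2* 22 genes met this rule, 0.559% of those tested. Those with the highest rho in NXT0072 included *2310035C23Rik* (0.41 in NXT0072 and 0.35 in NXT0143), *Zcchc11*, a uridylyltransferase of RNA (0.37 and 0.49), *Rpl41*, a ribosomal protein (0.37 and 0.41), *Hmga2*, a chromatin protein of embryonic cells (0.37 and 0.36), *Taf1d*, a factor of RNA polymerase I (0.37 and 0.51), *Brms1l*, a component of histone deacetylase complexes (0.36 and 0.34), and *Bub3*, a spindle checkpoint protein (0.35 and 0.74). Of the 13 genes around the cluster 7 were tested, and none of these was among the 22. With the number of genes detected taken out, 7 genes met the rule, 6 of these among the 22. Of the genes named here, *2310035C23Rik* and *Bub3* no longer met it. With cells thinned to 500000 reads, 18 genes met the rule, 7 of these among the 22. *Zcchc11* (0.29) and *2310035C23Rik* (0.27) then fell below 0.3 in NXT0072, while the other genes named here stayed above it in that run.

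For *Hoxd13* 17 genes met the rule (0.432%). The leading ones included *Cd164*, a sialomucin (0.40 in NXT0072 and 0.34 in NXT0143), *Furin*, a proprotein convertase (0.38 and 0.59), *Lrch2* (0.38 and 0.44), *Ifitm2*, an interferon-induced membrane protein (0.38 and 0.43), *Wbp11*, a splicing factor (0.38 and 0.40), *Nme1*, a nucleoside diphosphate kinase (0.36 and 0.39), and *Polr3k*, a subunit of RNA polymerase III (0.35 and 0.41). For *Hoxd12* 36 genes met it (0.914%), led by *Asun* (0.51 and 0.36), *Dld*, a dehydrogenase subunit of mitochondria (0.49 and 0.41), *Hnrnpr*, an RNA-binding protein (0.46 and 0.54), *Jmjd6*, a Jumonji-domain protein (0.45 and 0.38), *Hsp90b1*, a chaperone of the endoplasmic reticulum (0.42 and 0.33), *Ncapd2*, a condensin subunit (0.42 and 0.62), *Sumo3*, a ubiquitin-like modifier (0.41 and 0.41), and *Calr-ps* (0.40 and 0.32), a pseudogene whose reads can be shared with *Calr*. With the number of genes detected taken out, 9 genes met the rule for *Hoxd12*, 8 of these among the 36, and 12 for *Hoxd13*, 7 of these among the 17. Of the named companions of *Hoxd13*, *Furin* alone still met it, and of those of *Hoxd12*, *Hsp90b1*, *Sumo3* and *Calr-ps* no longer did. The counts are small beside the number of genes tested, and only 17 cells set the value in NXT0143. Some companions of the 3 genes were detected in few cells, as *Brms1l* in 15 of 59 cells of NXT0072 and 3 of 17 of NXT0143. *Furin* was detected in 17 and 3 and *Asun* in 16 and 3, whereas *Hsp90b1* was detected in 49 and 14. Like the coefficients among the 3 genes, these are descriptions of sparse counts.

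Genes around the cluster and autopod regulators were then looked at as lists. Of 13 genes around the cluster (*Atf2*, *Atp5g3*, *Lnp*, *Hoxd11* to *Hoxd1*, *Mtx2*, *Hnrnpa3* and *Nfe2l2*), 7 were tested and 0 met the companion rule for any of the 3 genes. Of the 7, *Lnp*, *Hoxd11* and *Hoxd10* are placed by the study under the digit enhancers, and the others are not named there, so the list is not one of digit-landscape genes. The median rho of the 7 in NXT0072 was 0.13 with *Evx2*, 0.05 with *Hoxd13* and −0.003 with *Hoxd12*, where the median over all genes was 0.07, −0.01 and 0.11. *Lnp* had a rho of 0.17, 0.17 and −0.14 in NXT0072 and of 0.24, 0.71 and 0.59 in NXT0143 with *Evx2*, *Hoxd13* and *Hoxd12*. *Hoxd11*, from whose locus the cells were sorted, had 0.20, 0.22 and 0.24 in NXT0072 and 0.07, 0.55 and 0.17 in NXT0143. Of 30 autopod regulators and genes named by the study as HOX targets, 17 were tested, and 0 met the rule with *Evx2*, 2 with *Hoxd13* and 0 with *Hoxd12*. The 2 genes were *Ppp2ca*, a phosphatase subunit (0.32 in NXT0072 and 0.33 in NXT0143), and *Ptch1*, the Hedgehog receptor (0.34 and 0.49). Over all 3938 genes tested, 0.559% met the rule with *Evx2*, 0.432% with *Hoxd13* and 0.914% with *Hoxd12*. At such shares, 0 of 7 or 0 of 17 is no finding about a list. With the number of genes detected taken out, *Ptch1* kept 0.36 and 0.48, and *Ppp2ca* fell short of the rule with 0.36 and 0.29. *Lhx2*, a LIM homeobox gene of the distal limb bud, had 0.31 with *Evx2* in NXT0072 and 0.19 in NXT0143. *Hoxa13* was near 0 in NXT0072, with 0.01 for *Evx2*, −0.01 for *Hoxd13* and −0.14 for *Hoxd12*, and had 0.29, 0.06 and 0.19 in NXT0143.

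**Figure D5:**
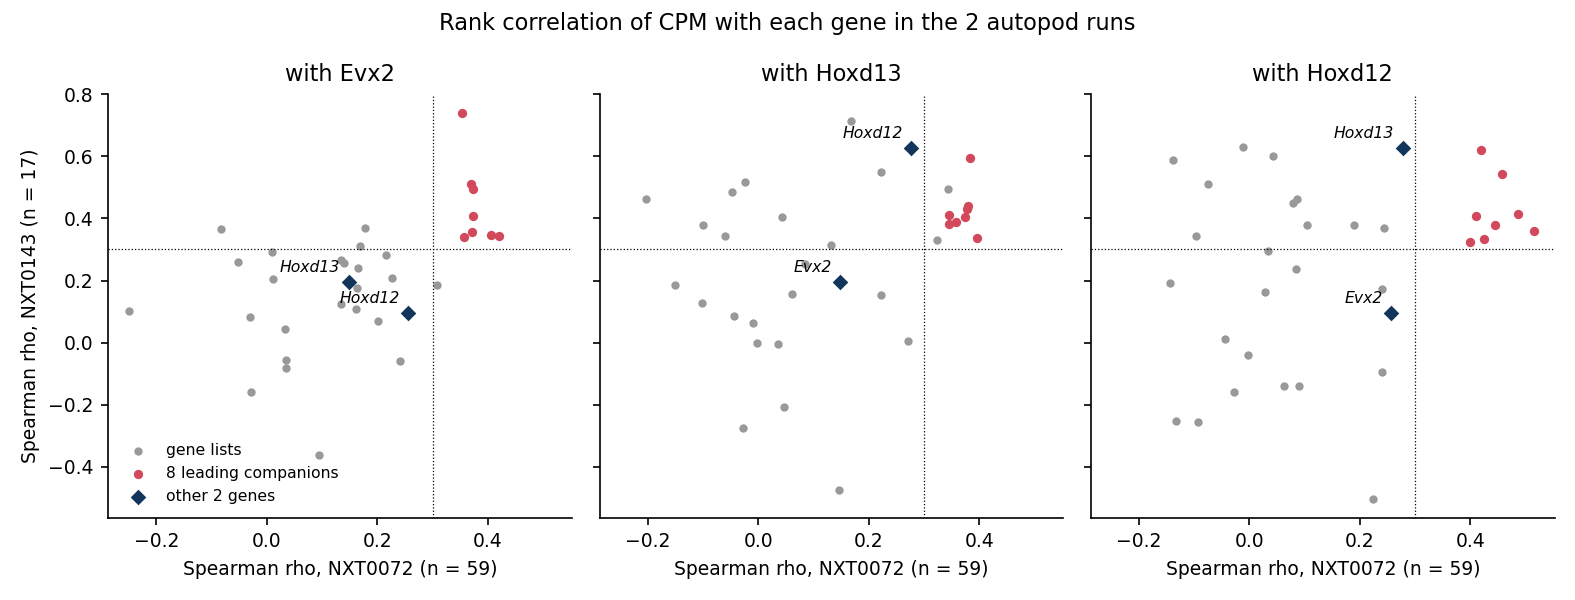
Spearman rho of CPM with *Evx2*, *Hoxd13* or *Hoxd12* in autopod cells of NXT0072 (horizontal axis, 59 cells) and NXT0143 (vertical axis, 17 cells). Red points are the 8 leading companions, grey points genes of the 2 lists that were tested, dark diamonds the other 2 genes, and dotted lines mark 0.3; *Hoxd12* and *Hoxd13* stand at 0.28 and 0.63 and *Evx2* lies below 0.3 in both runs.

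Zeugopod cells had almost none of these mRNAs. *Evx2* had 3 reads in all, 1 each in 3 cells of NXT0142, and was detected in 0 cells. The limit set by 3 cells of the total is 2.44%, and the exact binomial interval reaches 2.95%. *Hoxd13* was detected in 1 zeugopod cell, of NXT0142, which held 142 of the 158 *Hoxd13* reads of the tissue. That cell also had 961 reads of *Lnp*, 33 of *Lhx9* and 19 of *Hoxd11*. It had 0 of *Shox2*, *Meox2*, *Hoxa11*, *Hoxa13* and *Msx1*. A further 15 cells had 1 or 2 reads, 6 in NXT0142 and 9 in NXT0143. NXT0142 held no autopod cells. *Hoxd12* was detected in 2 cells, with 53 reads in zeugopod cell 78 and 5 in zeugopod cell 47. Both had reads of *Shox2* (3050 and 372) and *Hoxa11* (254 and 161) and 0 of *Hoxd13* and *Evx2*. *Meox2* had 2228 reads in cell 78 and 0 in cell 47. No zeugopod cell had 2 of the 3 genes at 5 or more reads.

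On the scale of mean log2(value + 1), *Evx2* was at 2.00 in autopod and 0.31 in zeugopod cells, a difference of 1.69, below the difference of 2 counted here as a change. Of 4898 genes that reached 5 reads in 25% or more of the autopod or of the zeugopod cells, 0.796% were higher by 2 or more in the autopod and 2.69% lower. *Hoxd13* and *Hoxd12* were among those higher in the autopod, with differences of 7.88 and 2.72, and *Evx2* ranked 56 from the top. The scale understates the difference of genes with low values. With a pseudocount of 0.1 the difference of *Evx2* was 2.39 and with 10 it was 0.80. Within NXT0143, the run with both tissues, the differences were 1.40 for *Evx2*, 4.16 for *Hoxd13* and 2.53 for *Hoxd12*, where 3.59% of genes were higher and 1.04% lower by 2 or more. Between NXT0072 and NXT0142 they were 1.77, 8.91 and 2.75, where 0.96% of genes were higher and 6.94% lower. Of the 13 genes around the cluster, *Lnp* was higher by 2 or more and *Hoxd8* lower by 2 or more over all cells, and 11 were neither. Within NXT0143 neither of them passed this difference, and *Hoxd11* was the 1 gene higher and 0 were lower. The median of the list over all cells was 0.05 against −0.12 for all genes. Of 29 autopod regulators and HOX targets with a value, 11 were higher and 0 lower, with a median of 0.81, and within NXT0143 13 were higher and 0 lower. Between NXT0072 and NXT0142, 10 were higher and 2 lower, *Hoxa11os* and *Hoxa10*. The 11 genes higher over all cells are all in the study's own list of genes enriched in the autopod in these cells. This regulator list was chosen with earlier results of these data known, so its counts are no independent support.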

How the data were processed

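Single-cell RNA-seq libraries of sorted forelimb cells were mapped by the authors with Bowtie2 in local mode to mm10 and spike-in sequences, and the deposited raw counts are reads per gene of GRCm38. The deposited normalized values (a signal, not on a log scale) were made by the authors from these counts with spike-in size factors centered within each batch, to which 1 was added before division by gene length in kb, for the cells past their quality filter. The counts were used here for detection (5 or more reads), CPM (reads scaled to 1000000 reads on genes), thinning to 500000 reads per cell and Spearman correlations. The normalized values were used for levels, ratios within a cell and means of log2(value + 1). Shares carry exact binomial (Clopper-Pearson) 95% intervals. Each tissue is 1 pooled sample, so no test and no p-value was computed. Companions were named as the 8 genes with the highest rho in NXT0072 among those with at least 0.3 in NXT0143, of which 2 are not reported here, and the other named genes came from lists around the cluster and of autopod regulators and HOX targets. The members and lists were chosen with earlier results of these data known, and a few single cells, *Evx1* and the *Hoxd12* border of 100 were singled out after their values were seen. Promoters came from the RefSeq table of GRCm38.p6. Doublets were not called, since no doublet step is given in the sources used here. Python 3.11.15, numpy 2.4.6, pandas 2.3.3, scipy 1.17.1 and matplotlib 3.10.9 were used, and the scripts were tested on simulated data. Alternatives covered the detection limit, depth, scale, pseudocount, gene filter and run.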

Additional observations from a re-analysis of the deposited data

Results flagged for a closer look

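The 20 autopod cells that failed the quality filter of the authors lie outside the comparisons, and they too held reads of the 3 genes. *Hoxd13* had 1055 reads there, 971 of them in autopod cell 26 of NXT0143, a cell with 1066 genes. *Hoxd12* had 147 reads, 74 of them in autopod cell 23, and *Evx2* had 14 reads, all in autopod cell 50 of NXT0072. The 6 zeugopod cells that failed the filter had 0 reads of each gene.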

How the results depend on the processing

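No paired analysis was possible because each tissue is 1 pooled sample and the cells carry no replicate numbers. Of 132 values recomputed under an alternative, 78 stayed within the limits set for an unchanged value, 50 moved and 4 changed sign. Those limits were the binomial interval for shares, 1.5-fold for log2 values and 1.5-fold for counts, and the cause of a move was not tested. For companion genes the limit was on their number alone, so a list could stay unchanged in this sense while its genes changed. Ratios of raw reads per kb and the thinned comparison with and without *Evx2* were chosen after seeing the data. So were tissue differences without the cell with most reads, an autopod cell for *Evx2* and a zeugopod cell for *Hoxd13* and *Hoxd12*.

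The share of *Evx2* cells with *Hoxd13* was 100% in NXT0072 and 80% in NXT0143. The share of *Hoxd13* cells with *Evx2* was 31.7% at a normalized value of at least 5, 11.5% with the added 5% rule and 27.6% after thinning with 5 reads. With *Hoxd12* it was 42.2% at 20 reads, and 41.3%, 26.2% and 43.1% under those same rules. The share of *Evx2* cells with *Hoxd12* was 50% at 20 reads, 12.5% with the 5% rule, 47.1% after thinning and 40% in NXT0143, and that of *Hoxd12* cells with *Evx2* was 5.88%, 30.8% and 33.3% under the last 3.

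The median log2 ratio of *Evx2* to *Hoxd13* was −6.43 at 1 read, −4.21 at 20 reads, −5.01 without length correction, −6.96 in NXT0072 and −1.91 in NXT0143. That of *Hoxd12* to *Hoxd13* was −5.73 at 1 read and −2.81 at 20 reads, and changed sign to 2.14 in NXT0143. That of *Evx2* to *Hoxd12* was −4.26 at 20 reads, −1.42 without length correction and −5.50 in NXT0143. The tissue difference with pseudocounts of 0.1 and 10 was 2.39 and 0.80 for *Evx2*, 9.13 and 5.50 for *Hoxd13* and 3.43 and 1.60 for *Hoxd12*, and for *Hoxd13* it was 4.16 within NXT0143 and 8.91 between NXT0072 and NXT0142.

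On normalized values 3.15%, 17.1% and 3.68% of genes tested met the companion rule for *Evx2*, *Hoxd13* and *Hoxd12*. With genes detected taken out, 7 genes (0.178%) did for *Evx2* and 9 (0.229%) for *Hoxd12*. Without a gene filter it was 46 (0.288%) for *Evx2* and 86 (0.539%) for *Hoxd12*. With a filter at 50% of cells it was 9 (0.726%), 11 (0.888%) and 5 (0.404%) for the 3 genes. After thinning it was 18 (0.457%) for *Evx2*, 19 (0.482%) for *Hoxd13* and 72 (1.83%) for *Hoxd12*. Of these, 7, 11 and 19 were among the 22, 17 and 36 genes of the main rule. Between *Hoxd13* cells with and without *Evx2*, *Hoxd10* changed sign to −0.16 on log2(CPM + 1) and to −1.45 in NXT0143, and *Hoxa13* to −0.061 in NXT0072. *Hoxa13* was 2.86 in NXT0143, *Hoxd12* 1.05 with a pseudocount of 10 and 0.93 in NXT0143, and *Hoxd13* 0.55 on log2(CPM + 1) and 0.63 in NXT0143.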

Other observations

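*Evx1*, the relative of *Evx2* next to the *HoxA* cluster, was detected in 9 of 76 autopod cells, 5 in NXT0072 and 4 in NXT0143. It was also detected in 10 zeugopod cells, 6 of 58 in NXT0142 and 4 of 65 in NXT0143, with at most 22 reads. In the autopod it was detected in 3 of 30 cells with *Evx2* and in 6 of 46 cells without it, with at most 540 reads. *Evx1* was chosen after its values were seen.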
